A study of Mus musculus with 18 samples.

Results

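Aminoacyl-tRNA synthetases join each amino acid to its tRNA, and so supply the charged tRNAs from which ribosomes build proteins. Mammalian cells carry 1 set of these enzymes for cytosolic translation and another, also encoded in the nucleus, for translation of the few mRNAs made inside mitochondria. Several cytosolic enzymes sit together in a multi-tRNA synthetase complex, and many synthetase genes are known targets of ATF4, the transcription factor of the amino acid response. In human cells the cytosolic tryptophan enzyme is also known as a protein induced by interferon-γ.

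The members were all genes of the authors' deposited table whose symbol has the form of a synthetase name (1 letter for the amino acid, then "ars" with no suffix, 1, 2, a or b) together with Eprs. The rule found 37 of the 12205 genes in the table. Of these, 20 code for cytosolic enzymes and 17 for mitochondrial ones. Gars (glycine) and Kars (lysine) serve both compartments from 1 gene and were counted as cytosolic. Phenylalanine has an enzyme of 2 subunits, Farsa and Farsb, and Eprs charges both glutamate and proline. The rule used symbols and no measured value.

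The cells were freshly thawed primary astrocytes from newborn (P0 to P2) wild-type C57BL mice of both sexes, pooled. Untreated cells were cultured for 120 h. Treated cells were given a pair of inflammatory cytokines, IL-1β at 0.25 ng/ml together with TNFα at 20 ng/ml, during the last 24 h (following 96 h of culture) or the last 48 h (following 72 h). Each lysate gave an RNA-seq library, which measures mRNA abundance, and a ribosome profiling library, which counts the mRNA fragments of 26 to 34 nt that ribosomes protect (footprints). The 18 libraries formed 6 groups of 3 batches each, and the labels do not say how the batches differ.

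The authors' deposited table holds 1 log2 change per gene for each of 6 comparisons with untreated cells: RNA, footprints and translation efficiency (footprints relative to RNA) at 24 h and at 48 h. A log2 change of 1 is a doubling. Values per library are not in the files used here, so the spread between batches and the depth behind each value are unknown. No difference below could be tested, and the words higher and lower describe the deposited values alone. Fewer astrocytes among the cells and less RNA per cell cannot be told apart in such bulk samples. All 8 astrocyte markers looked for were in the table (Gfap, Aqp4, Slc1a2, Slc1a3, Aldh1l1, Gja1, S100b and Sox9), beside 3 of 14 microglial, 6 of 10 oligodendrocyte, 3 of 5 neuronal and 7 of 9 endothelial, mural or fibroblast markers. Their levels are not given. In RNA at 24 h these markers ranged from -1.79 to 2.17 for astrocytes, 0.18 to 1.80 for microglia, -1.54 to 1.90 for oligodendrocytes, -2.49 to 0.17 for neurons and -3.54 to 4.16 for the vascular and fibroblast group, by the authors' deposited table. At 48 h the microglial marker Adgre1 stood at 7.55 in RNA, against 0.57 at 24 h, by the authors' deposited table. The other microglial markers measured were lower at 48 h than at 24 h in the authors' deposited table. Cd68 went from 1.80 to 0.56 and Tmem119 from 0.18 to 0.09. The part of such shifts in the synthetase values was not tested.

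After 24 h of cytokines, RNA of the cytosolic synthetases stood above that of untreated cells for most members, whereas RNA of the mitochondrial synthetases stood below it for most. The cytosolic median was 0.38 (interquartile range over genes 0.08 to 0.60), with 17 of 20 members above 0. The mitochondrial median was -0.14 (interquartile range -0.37 to 0.16), with 6 of 17 above 0. Over all genes the median was -0.03 and 48.0% lay above 0. The shifts were small: 1 of the 37 members reached a log2 change of at least 1 in either direction, against 17.1% of all genes. At a lower limit of 0.5, 9 of 37 members passed, against 35.9% of all genes. All 7 members higher by at least 0.5 were cytosolic, and both members lower by at least 0.5 were mitochondrial.

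Rars, the arginine enzyme and a member of the multi-tRNA synthetase complex, had the highest RNA value of the family at 24 h, 1.08 in the authors' deposited table, a 2.12-fold change. It was followed in the authors' deposited table by Cars (cysteine) at 0.77, Kars (lysine) at 0.72, Nars (asparagine) at 0.67, Eprs (glutamate and proline) at 0.62, Farsb (the β subunit of the phenylalanine enzyme) at 0.60 and Iars (isoleucine) at 0.52. These 7 genes charge unlike amino acids and belong to both structural classes of synthetases. Between 0.3 and 0.5 the authors' deposited table had Gars (glycine) at 0.44, Tars (threonine) at 0.42, Hars (histidine) at 0.42, Mars (methionine) at 0.34 and Lars (leucine) at 0.33. Near 0 in the authors' deposited table lay Aars (alanine) at 0.20, Yars (tyrosine) at 0.14, Sars (serine) at 0.09, Qars (glutamine) at 0.07, Wars (tryptophan) at 0.04 and Farsa (the α subunit for phenylalanine) at -0.06. Dars (aspartate) at -0.14 and Vars (valine) at -0.25 were the lowest cytosolic members in the authors' deposited table. The subunits of the phenylalanine enzyme, which work as one protein, thus had RNA values that differed by sign.

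In the authors' deposited table the RNA values of mitochondrial enzymes at 24 h were highest for Rars2 (arginine) at 0.38, Ears2 (glutamate) at 0.29 and Yars2 (tyrosine) at 0.27, then Nars2 (asparagine) at 0.18 and Hars2 (histidine) at 0.16. Ears2 also serves glutamine in mitochondria, where glutamine-tRNA is made by amidation of glutamate on the tRNA. Close to or somewhat below 0 in the authors' deposited table were Iars2 (isoleucine) at 0.0024, Tars2 (threonine) at -0.13, Wars2 (tryptophan) at -0.14, Lars2 (leucine) at -0.14, Cars2 (cysteine) at -0.19 and Pars2 (proline) at -0.24. Further below 0 in the authors' deposited table were Fars2 (phenylalanine) at -0.31, Mars2 (methionine) at -0.37, Sars2 (serine) at -0.40, Aars2 (alanine) at -0.41 and Vars2 (valine) at -0.57. Valine therefore had the lowest member of each set, and arginine the highest of each.

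**Figure D1:**
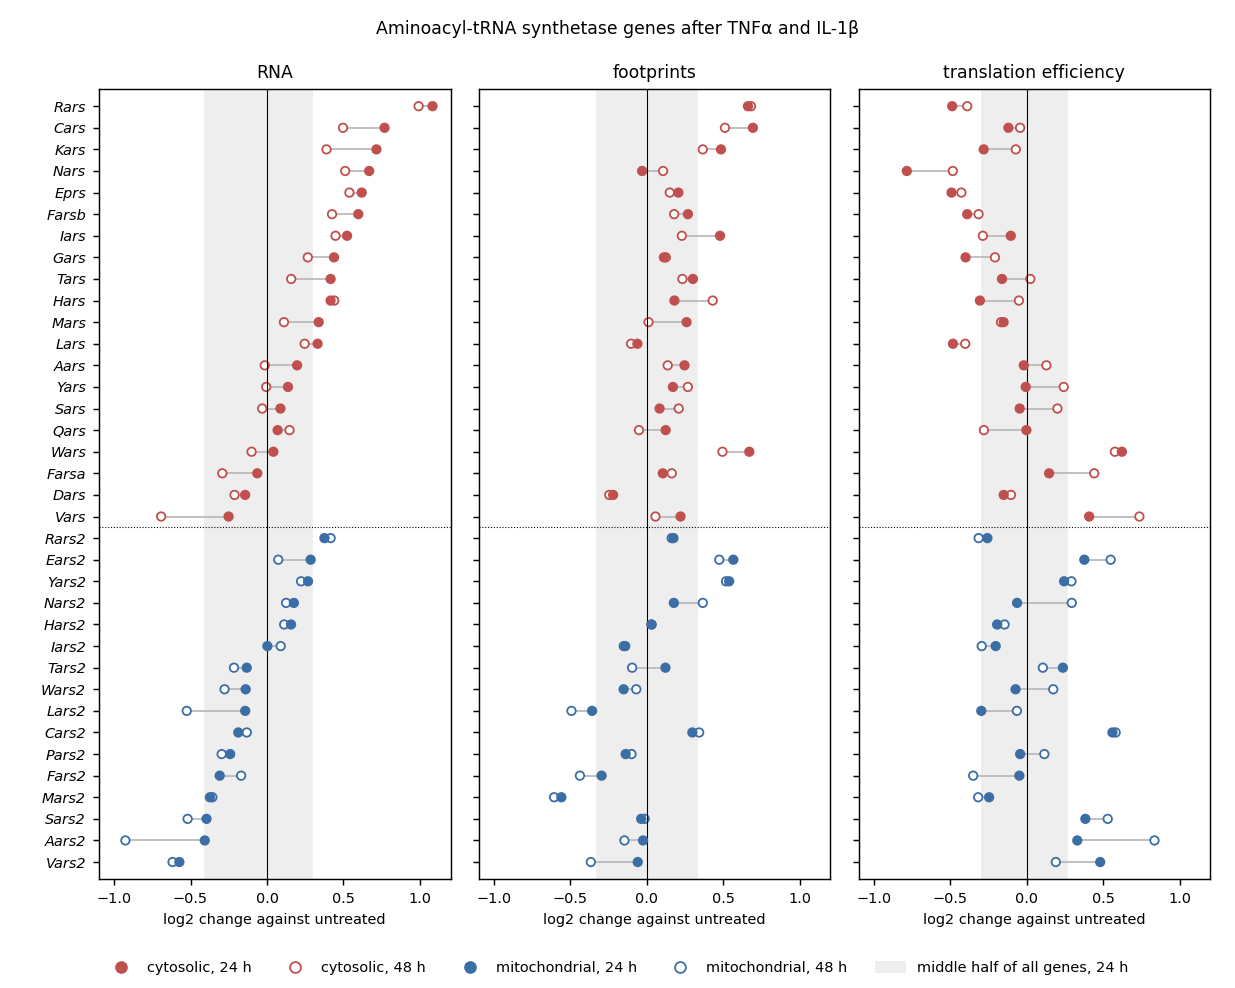
Log2 change against untreated cells (x axis) of 36 synthetase genes (y axis, sorted by RNA at 24 h within each compartment) in RNA, footprints and translation efficiency; filled points are 24 h, open points 48 h, red cytosolic, blue mitochondrial, and the grey band spans the quartiles of all genes at 24 h. Cytosolic RNA values reach 1.08 (Rars) and mitochondrial ones go down to -0.93 (Aars2, 48 h), and footprint values run from 0.69 (Cars, 24 h) down to -0.61 (Mars2, 48 h) among the genes drawn.

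RNA values of the cytosolic enzymes at 48 h were lower than at 24 h for 18 of 20 members, against 51.0% of all genes. The difference between the sets stayed in the same direction. The cytosolic median was 0.20 with 13 of 20 above 0, and the mitochondrial median was -0.22 with 6 of 17 above 0. In the whole table the RNA median at 48 h was -0.02 and 48.5% of genes lay above 0. At a log2 change of 1, 0 of 37 members passed in RNA at 48 h, against 18.4% of all genes, with Rars just inside the limit at 0.99 in the authors' deposited table. At 0.5, 8 of 37 passed, against 39.3% of all genes. Higher by at least 0.5 in the authors' deposited table were Rars, Eprs (0.54) and Nars (0.51), and lower were Aars2 (-0.93), Vars (-0.69), Vars2 (-0.62), Lars2 (-0.52) and Sars2 (-0.52).

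The change between both times was taken as the 48 h value minus the 24 h value, because both comparisons share the untreated cells. Whether the untreated cells cancel exactly is unknown, since how each fold change was computed is not given. For the cytosolic enzymes the 48 h value minus the 24 h value in RNA had a median of -0.15 (interquartile range -0.23 to -0.08). For the mitochondrial enzymes it was -0.05 (interquartile range -0.12 to 0.04), and for all genes -0.0046 (-0.12 to 0.12). Vars and Aars2 had the lowest RNA values of their sets at 48 h. Vars went from -0.25 to -0.69 and Aars2 from -0.41 to -0.93 in the authors' deposited table. Lars2 went from -0.14 to -0.52, Kars from 0.72 to 0.39 and Cars from 0.77 to 0.50 in the authors' deposited table. Only Hars and Qars among the cytosolic members were higher at 48 h, by 0.02 and 0.08. Among the mitochondrial members, 6 of 17 were higher at 48 h, with Fars2 higher by 0.14.

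Because nearly every amino acid has an enzyme in each compartment, the sets can be compared amino acid by amino acid. Each of the 17 mitochondrial enzymes was set against its cytosolic counterpart, with Farsa and Farsb averaged and Eprs used for both glutamate and proline. In RNA at 24 h the cytosolic enzyme had the higher value for 16 of 17 amino acids, with a median difference of 0.49 (interquartile range 0.33 to 0.60). The widest difference was that of cysteine (0.96), where Cars lay at 0.77 and Cars2 at -0.19 in the authors' deposited table. Proline (0.86), methionine (0.71), arginine (0.71) and alanine (0.60) followed. Tyrosine was the exception at -0.13, with Yars at 0.14 and Yars2 at 0.27 in the authors' deposited table. The cytosolic enzyme at 48 h was higher for 15 of 17 amino acids, with a median of 0.39, and the exceptions were tyrosine (-0.23) and valine (-0.07).

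**Figure D2:**
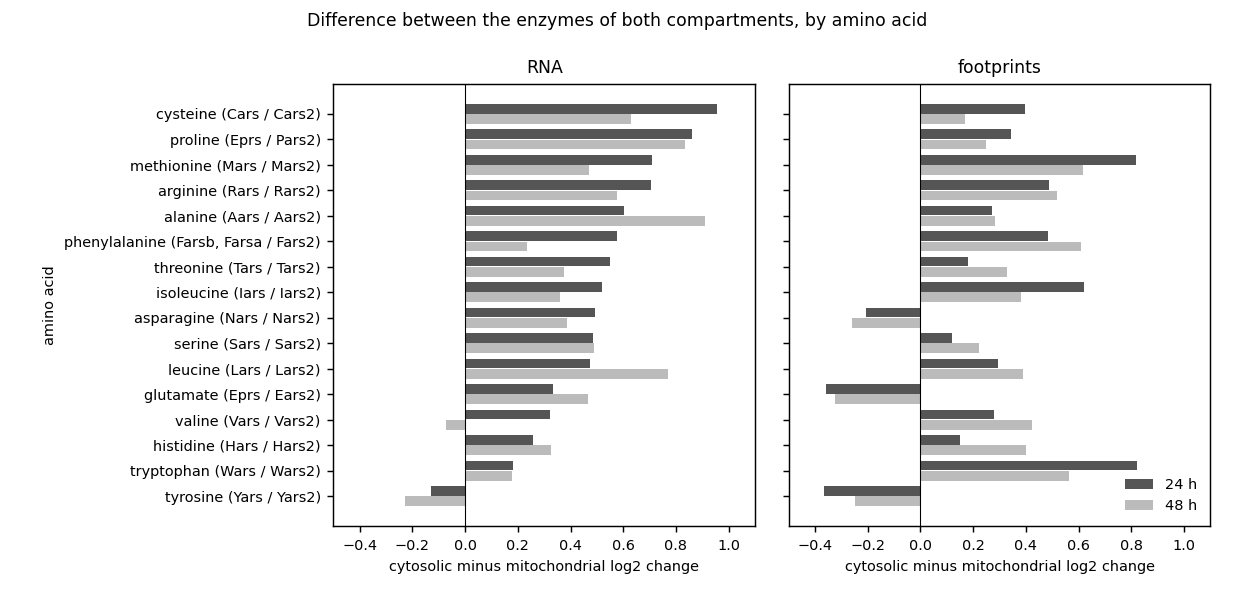
Cytosolic minus mitochondrial log2 change (x axis) for 16 amino acids (y axis, with the gene pair in brackets) in RNA and in footprints; dark bars are 24 h and light bars 48 h. In RNA at 24 h the bars drawn lie right of 0 except that of tyrosine, and in footprints those of tyrosine, glutamate and asparagine lie to the left.

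In footprints the medians of the compartments lay closer together than in RNA, while the differences per amino acid were about as wide at 48 h. The cytosolic median was 0.21 at 24 h and 0.17 at 48 h, with 17 of 20 members above 0 at each time. The mitochondrial median was -0.04 at 24 h and -0.10 at 48 h, with 7 and 6 of 17 above 0. All genes had medians of 0.01 and 0.0091, with 50.9% and 50.8% above 0. No member reached a footprint change of 1 in either direction, against 16.6% of all genes at 24 h and 16.8% at 48 h. At 0.5, 7 of 37 members passed at 24 h, against 35.1% of all genes, and 5 of 37 at 48 h, against 35.6%. By amino acid, the cytosolic enzyme had the higher footprint value for 14 of 17 at each time, with median differences of 0.30 and 0.38.

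Cars (0.69 at 24 h and 0.51 at 48 h) and Rars (0.66 and 0.68) were high in footprints as in RNA in the authors' deposited table. Wars stood beside them at 0.67 and 0.49 in footprints although its RNA values were 0.04 and -0.10 in the authors' deposited table. The mitochondrial Ears2 (0.56 and 0.47) and Yars2 (0.54 and 0.52) came next in the authors' deposited table. Nars, at 0.67 in RNA at 24 h, had a footprint value of -0.03 in the authors' deposited table, and Lars, at 0.33 in RNA, had -0.06. By the authors' deposited table Mars2 (-0.56 and -0.61) was low in footprints, as were Lars2 (-0.36 and -0.49) and Fars2 (-0.30 and -0.44).

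**Figure D3:**
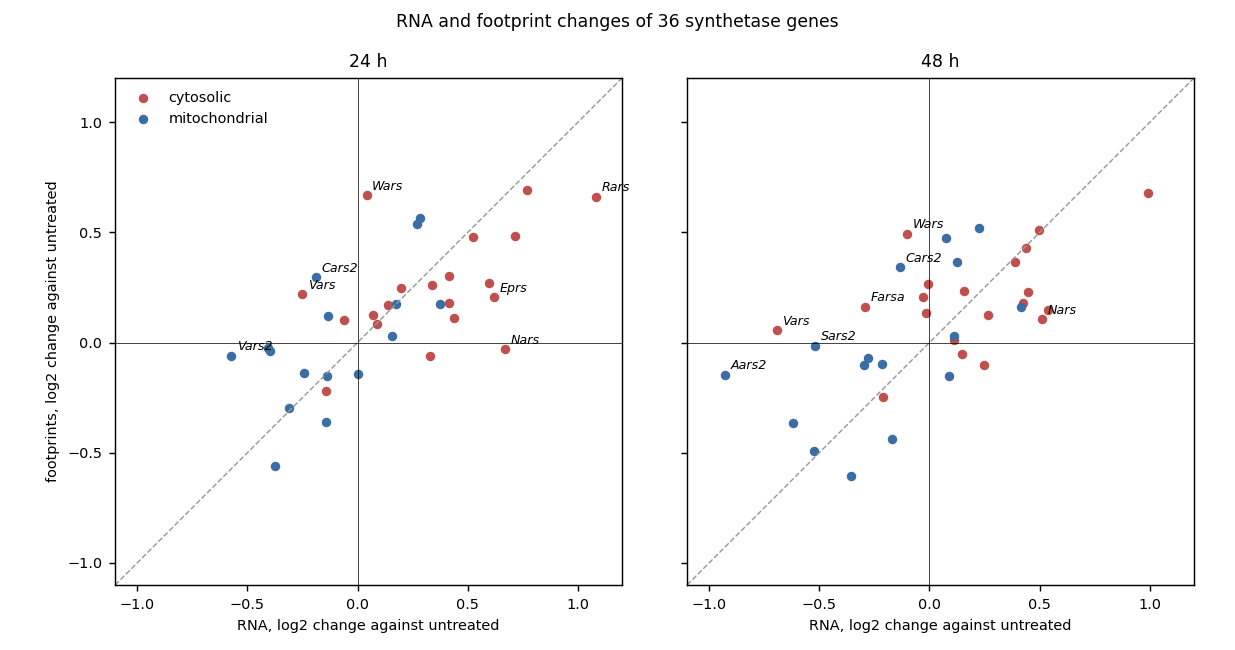
Footprint change (y axis) against RNA change (x axis), both as log2 against untreated, for 36 synthetase genes at 24 h and 48 h; the dashed line marks equal change, and genes at least 0.4 from it are named. At 24 h most cytosolic points (red) right of 0 lie under the line, while Wars, Vars, Cars2 and Vars2 lie above it.

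Translation efficiency showed where footprints and RNA parted. No member reached 1 in either direction, against 3.11% of all genes at 24 h and 4.56% at 48 h. At 0.5, 3 of 37 members passed at 24 h, against 21.9% of all genes, and 7 of 37 at 48 h, against 26.4%. Among cytosolic enzymes 17 of 20 lay below 0 at 24 h (median -0.15), and 13 of 20 at 48 h (median -0.09). Among all genes 52.8% lay below 0 at 24 h and 54.2% at 48 h. The deposited translation efficiency ran somewhat lower than footprints minus RNA. The median gap was -0.06 at 24 h and -0.05 at 48 h for members, and -0.05 at each time for all genes. Footprint values were below RNA values in 14 of 20 cytosolic enzymes at 24 h and in 12 of 20 at 48 h. Among all 12205 genes this held for 5835 and 6069. RNA above 0 was combined with translation efficiency below 0 in 16 of 20 cytosolic enzymes at 24 h and in 12 of 20 at 48 h, against 3723 and 4013 of all 12205 genes. Among mitochondrial enzymes 10 of 17 lay below 0 at 24 h (median -0.05) and 7 of 17 at 48 h (median 0.11). Across the 20 cytosolic genes, RNA and translation efficiency values correlated at r = -0.70 at 24 h and -0.80 at 48 h, against -0.15 and -0.29 across the 17 mitochondrial genes and -0.26 and -0.31 across all genes. Translation efficiency contains the RNA value with a minus sign, so part of any such correlation is built in, and genes are not replicates.

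The lowest translation efficiency at 24 h was that of Nars, at -0.78, with -0.48 at 48 h in the authors' deposited table. Eprs (-0.49 and -0.43), Rars (-0.49 and -0.39), Lars (-0.48 and -0.40), Gars (-0.40 and -0.21) and Farsb (-0.39 and -0.32) also lay below 0 at both times in the authors' deposited table. Wars was the highest member at 24 h, at 0.62, with 0.58 at 48 h in the authors' deposited table. Vars stood at 0.41 and 0.74 in the authors' deposited table, so that its footprint values (0.22 and 0.06) stayed above 0 while its RNA values did not. Among the mitochondrial enzymes the authors' deposited table had Cars2 at 0.56 and 0.58, Vars2 at 0.48 and 0.19, Sars2 at 0.38 and 0.53, Ears2 at 0.38 and 0.55 and Aars2 at 0.33 and 0.83.

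The multi-tRNA synthetase complex holds the enzymes for 9 amino acids, encoded by Eprs, Iars, Lars, Mars, Qars, Rars, Kars and Dars, on the scaffold proteins of Aimp1, Aimp2 and Eef1e1. Its 8 synthetase genes had an RNA median of 0.43 at 24 h and 0.32 at 48 h, with 7 of 8 above 0 at each time, Dars being the exception. The 12 cytosolic genes outside the complex had RNA medians of 0.31 and 0.08, with 10 and 6 of 12 above 0. Footprints did not repeat this order at both times. Their medians at 24 h were 0.23 inside the complex (6 of 8 above 0) and 0.20 outside (11 of 12). At 48 h they were 0.08 inside (5 of 8 above 0) and 0.19 outside (12 of 12). In translation efficiency all 8 genes of the complex lay below 0 at 24 h (from -0.49 to -0.0026, median -0.22) and at 48 h (from -0.43 to -0.07, median -0.28). Outside the complex 9 of 12 lay below 0 at 24 h (median -0.08) and 5 of 12 at 48 h (median 0.08). Within the complex, Qars held the value of -0.0026, although its footprint value at 24 h was above its RNA value (0.12 against 0.07). The difference between the groups was not tested, since each gene has 1 value.

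The 3 scaffold genes did not share 1 pattern. Eef1e1, also known as Aimp3, had RNA values of 0.89 and 0.76 by the authors' deposited table, and translation efficiency values of -0.57 and -0.19. Aimp1, whose protein can also be cleaved to a secreted cytokine, had translation efficiency values of -0.24 and -0.54 and RNA values of 0.26 and 0.36 in the authors' deposited table. Aimp2, the central scaffold, had translation efficiency values of 0.67 and 0.58 and RNA values of 0.07 and -0.15 in the authors' deposited table.

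By structural class the cytosolic enzymes differed little in RNA at 24 h, with medians of 0.33 for the 9 of class I and 0.42 for the 10 of class II, leaving out Eprs, which holds a domain of each. Among the mitochondrial enzymes the medians were -0.14 for the 9 of class I and -0.28 for the 8 of class II. In translation efficiency the 48 h value was above the 24 h value for all 10 cytosolic enzymes of class II and for 5 of 9 of class I. Among all genes this held for 51.7%. The mitochondrial enzymes did not differ by class in this way, with 5 of 8 of class II and 5 of 9 of class I. The cytosolic counts also differed by complex, with 5 of 8 genes inside it and 11 of 12 outside. Class and complex were not separated.

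Because most cytosolic members had RNA values above 0 at 24 h, the promoters of the family were searched for letters of known response elements. RefSeq promoter sequences on GRCm38.p6 were found for 27 of the 37 genes (13 cytosolic and 14 mitochondrial), and none were used for the other 10, among them Rars, Cars, Nars, Hars, Lars, Hars2, Wars, Pars2 and Vars. The 250 bases before each start site were searched on both strands for TGATGNAA (a site of ATF4 with C/EBP), GAAANNGAA (the core of the interferon-stimulated response element) and GGANNTTCC (the core of an NF-kB site). No match overlapped another. The ATF4 letters were found in 3 of 13 cytosolic genes (Gars, Tars and Aars) and in 0 of 14 mitochondrial genes, against 3.91% of all 27025 genes in the promoter table. The interferon-stimulated letters were found in Qars alone, against 8.18% of all genes. The NF-kB letters were found in none of the 27, against 4.12%. The shares over all genes cover every gene with a promoter sequence, whether or not it has values in the authors' deposited table. A match is a description of letters, and a window without one says nothing of the factor.

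The 250 bases before the start sites of Gars and Tars are shown because, of the genes with these letters, they were those with the highest RNA values at 24 h. The window of Aars, the next in that order, lies inside the annotated span of its gene and only its matching letters are given. Capitals mark the ATF4 letters, here on the opposite strand. The windows are Gars at chr6:55037751-55038000 on the plus strand and Tars at chr15:11399659-11399908 on the minus strand, each 5′ to 3′ toward the start site.
Gars: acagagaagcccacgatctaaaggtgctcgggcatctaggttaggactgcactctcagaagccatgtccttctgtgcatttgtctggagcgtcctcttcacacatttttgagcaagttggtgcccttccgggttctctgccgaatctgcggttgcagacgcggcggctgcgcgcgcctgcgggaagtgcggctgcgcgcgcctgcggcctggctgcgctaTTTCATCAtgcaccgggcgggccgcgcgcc
Tars: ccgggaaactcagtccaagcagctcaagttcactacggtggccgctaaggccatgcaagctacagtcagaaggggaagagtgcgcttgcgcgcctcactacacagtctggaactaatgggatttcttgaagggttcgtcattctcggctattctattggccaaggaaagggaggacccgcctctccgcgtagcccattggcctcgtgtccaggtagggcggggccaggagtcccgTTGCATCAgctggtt

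The ATF4 letters lay from -15 to -8 in Tars (TTGCATCA) and from -30 to -23 in Gars (TTTCATCA), counted back from the start site. In Aars they lay from -112 to -105 (TTGCATCA). The RNA values of these 3 genes were 0.42, 0.44 and 0.20 at 24 h and 0.16, 0.27 and -0.01 at 48 h in the authors' deposited table.

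Other genes of the amino acid response were set beside the synthetases. In RNA at 24 h, 6 of the 34 measured lay at 1 or above and 2 at -1 or under, and at 48 h 4 and 3 did, with medians of 0.20 and -0.17. Among all genes 7.54% lay at 1 or above and 9.55% at -1 or under at 24 h, and 8.11% and 10.3% at 48 h. Higher in the authors' deposited table were Slc7a11, the cystine importer (4.96 and 5.20), the transcription factor gene Cebpb (3.15 and 3.05), the stress gene Nupr1 (2.64 and 1.55) and Aldh1l2 of mitochondrial folate metabolism (1.71 and 1.42). Lower in the authors' deposited table were Slc7a5 (-1.58 and -2.31) and Slc3a2 (-1.20 and -1.23), which code for the subunits of a transporter of large neutral amino acids, and Psat1 of serine synthesis (-0.96 and -1.01). Atf4 itself (1.05 and 0.84) and Asns, the asparagine synthetase that it is known to induce (0.81 and 0.43), lay above 0 in the authors' deposited table; both were picked after their values were seen. The list thus held values in both directions wider than those of any synthetase. Of the kinases that act upstream of ATF4, Eif2ak2 had the highest RNA value (1.70 and 1.26), before Eif2ak3 (0.71 and 0.75), Eif2ak1 (0.34 and 0.48) and Eif2ak4, the sensor of uncharged tRNA (-0.25 and -0.44), in the authors' deposited table.

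Wars, whose human counterpart is known as a target of interferon-γ, can be set beside genes of interferon signalling. The list was drawn for interferon signalling in general and not for interferon-γ alone. In RNA 7 of 8 of these were higher by at least 1 at 24 h, against 7.54% of all genes, and 5 of 8 at 48 h, against 8.11%, with medians of 1.59 at each time. The authors' deposited table had Irf1 at 3.18 and 2.74, Jak2 at 2.99 and 3.22, Ifngr1 at 1.65 and 1.95, Ifngr2 at 1.53 and 1.68, Stat2 at 1.40 and 0.65, Irf9 at 1.14 and 0.76 and Jak1 at 0.42 and 0.74. Wars in RNA stayed at 0.04 and -0.10 beside them in the authors' deposited table. Of the genes of tryptophan breakdown and uptake only Slc7a5 and Slc3a2, above, were in the table.

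The genes that make and trim tRNA had medians near 0. Among all genes 7.54% were higher by 1 in RNA at 24 h and 8.11% at 48 h, and 17.1% and 18.4% lay past 1 in either direction. Of 21 genes of RNA polymerase III and its factors, which transcribe tRNA genes, 0 were higher by 1 in RNA at either time, and 1 was lower by 1 at 48 h. Of 20 nuclear tRNA processing genes 0 were higher by 1, and Tsen54, of the tRNA splicing endonuclease, was lower at 48 h (-0.96 and -1.25 in the authors' deposited table). Their RNA medians at 24 h were 0.13 each. The 17 genes of mitochondrial tRNA processing and modification had a median of -0.02 with 0 past 1. The 9 mitochondrial translation factors had a median of -0.0008 in RNA and -0.20 in translation efficiency at 24 h.

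The 5 cytosolic elongation factor genes had an RNA median of 0.36 at 24 h, close to the 0.38 of the cytosolic synthetases. Their RNA values were scattered, from -0.33 to 0.61, with 3 of 5 above 0, against 17 of 20 for the cytosolic synthetases. The translation efficiency median of the elongation factor genes was 0.28, with 5 of 5 above 0, against -0.15 for the cytosolic synthetases. At 48 h it was 0.17, with 3 of 5 above 0, against -0.09. Eef1b2 (0.73), Eef1d (0.52), Eef2 (0.28), Eef1g (0.17) and Eef1a1 (0.12) were the single values at 24 h in the authors' deposited table. Ribosomal proteins (81 genes) had a translation efficiency median of 0.51 and mitochondrial ribosomal proteins (76 genes) of 0.18 at 24 h, and of 0.10 and 0.14 at 48 h. The corresponding footprint medians were 0.67 and 0.22 at 24 h, against 0.21 for cytosolic and -0.04 for mitochondrial synthetases. At 48 h they were 0.38 and 0.17, against 0.17 and -0.10. These differences were not tested.

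**Figure D4:**
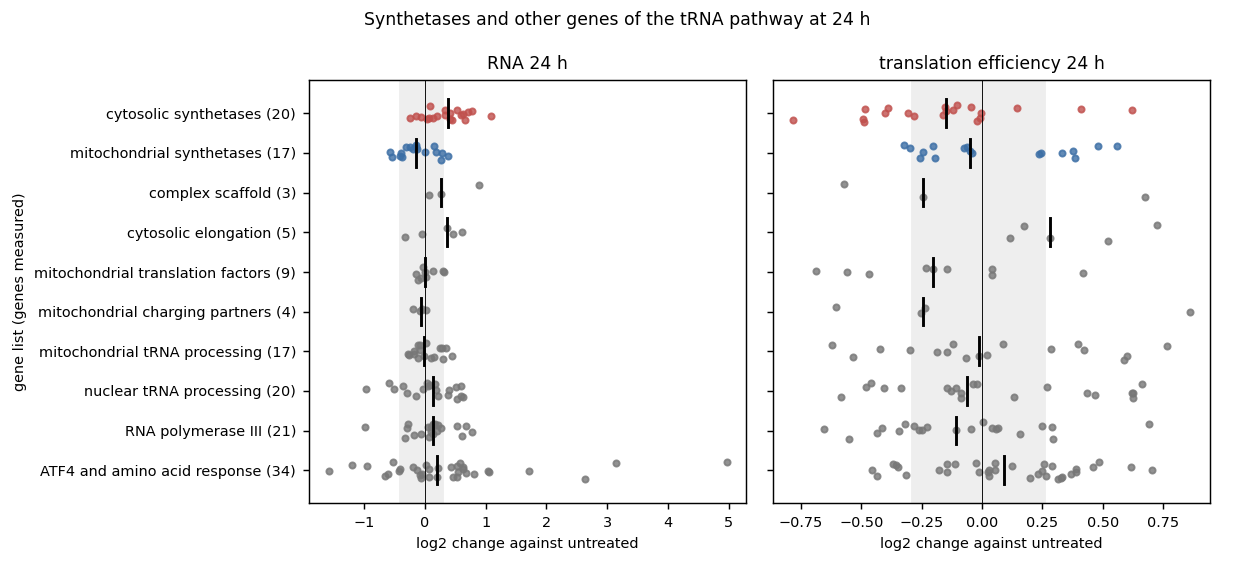
Log2 change against untreated at 24 h (x axis) in RNA and in translation efficiency for genes of 10 lists (y axis, with the number measured); each point is a gene, spread vertically at random, black ticks are medians and the grey band spans the quartiles of all genes. Cytosolic synthetases (median 0.38) and cytosolic elongation factors (0.36) have like RNA medians, while in translation efficiency they lie at -0.15 and 0.28.

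By position, Iars2 (chromosome 1, 185286642 to 185329419 on GRCm38.p6) and Eprs (185361417 to 185428360) lie 31997 bp apart. Their RNA values at 24 h were 0.0024 and 0.62 in the authors' deposited table. Hars and Hars2 share a start region and overlap slightly in the annotation (a gap of -4 bp). Whether reads there were counted by strand is not stated in the labels or headers. The values of Hars and Hars2 (0.42 and 0.16 in RNA at 24 h in the authors' deposited table) are uncertain to that extent.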

How the data were processed

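RNA-seq and ribosome profiling were made from the same lysates of primary astrocytes. Per the submitters' processing notes, TopHat2, featureCounts and mm10 were used. Not given in the sources used here are versions, normalization, how the batches entered each fold change. For 6 comparisons with untreated cells the authors deposited log2 values per gene, per the file headers. Translation efficiency has no scale in its header and was taken as log2, since 36 of 37 members at 24 h and 35 of 37 at 48 h differed by under 0.1 from footprints minus RNA. The labels call the RNA polyA RNA while their protocol names a total RNA kit. No values per library were used, so depth, precision and batch spread are unknown, and no test was made; the design had provided for limma on values per batch and, failing these, for counts by size.

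Members and gene lists were chosen with earlier results of these data known. Members were counted at log2 changes of 1 and 0.5 beside all genes; medians and quartiles describe genes. All synthetases are named; of lists with more than 8 measured genes, up to 4 per direction past 1 in RNA. All 37 members matched RefSeq positions on GRCm38.p6, used here for positions and promoters only. The table has no missing values and was not filtered. The counts and medians were tested on simulated data. Python 3.11.15, numpy 2.4.6, pandas 2.3.3 and matplotlib 3.10.9 were used. The further sheets of the workbook hold no synthetase and were not used. The members' counts and medians cover all 37 genes, but some genes and 1 sequence motif are not reported here by name.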

Additional observations from a re-analysis of the deposited data

How the results depend on the processing

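The direction of the cytosolic minus mitochondrial median did not change in any of the 6 comparisons under the alternatives run: means, leaving out Gars and Kars, leaving out Wars, differences per amino acid, and footprint minus RNA in place of the deposited translation efficiency. As medians it was 0.52 and 0.42 in RNA at 24 h and 48 h, 0.25 and 0.27 in footprints and -0.10 and -0.20 in translation efficiency. Of 32 alternative values 28 lay within 0.1 of these, a limit chosen here because no replicate spread exists. The others were the per amino acid medians of 0.38 in footprints at 48 h, -0.23 in translation efficiency at 24 h and -0.0748 at 48 h, and the mean of -0.21 in translation efficiency at 24 h. With a limit of 0.5 in place of 1, members past the limit numbered 9 and 8 in RNA, 7 and 5 in footprints and 3 and 7 in translation efficiency; centring on the median of all genes gave 1 in RNA at 48 h (Rars) in place of 0. A further alternative was to leave out members whose 3 values failed to add up by over 0.5, but there were none. Its value in each of the 6 comparisons therefore had to equal the main value, and these are counted among the 28. Leaving out each batch was not run. No paired analysis was possible because the files used here hold 1 value per gene and comparison and none per batch. Depth limits every value to an unknown degree.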

Other observations

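Genes next to the family that the report does not describe also gave values. Tarsl2, a threonyl-tRNA synthetase-like gene, had -0.69 and -0.81 in RNA and -1.31 and -1.24 in footprints at 24 h and 48 h in the authors' deposited table, lower in footprints than any of the 37 members. Dtd1, a deacylase that removes D-amino acids from tRNA, had translation efficiency values of 0.945 and 0.73 and RNA values of -0.26 and -0.43 in the authors' deposited table, while the related Dtd2 had -0.14 and -0.07 in RNA. Of the genes that make selenocysteine on its tRNA, Sepsecs lay at 0.40 and 0.365 and Pstk at -0.10 and -0.025 in RNA in the authors' deposited table. Prorsd1, a prolyl-tRNA editing gene, lay at 0.35 and 0.47 in RNA in the authors' deposited table.

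In mitochondria the 3 subunit genes of the amidotransferase that completes glutamine-tRNA, Gatb (-0.20 and 0.11), Gatc (-0.04 and -0.11) and Qrsl1 (0.01 and -0.10), lay near 0 in RNA in the authors' deposited table, where their translation efficiency values at 24 h were -0.24, -0.60 and -0.25. Mtfmt, which formylates the initiator methionine, had translation efficiency values of 0.86 and 0.52 and RNA values of -0.08 and 0.16 in the authors' deposited table. Tufm, the mitochondrial elongation factor that receives charged tRNA, had translation efficiency values of 0.42 and 0.71 and RNA values of -0.12 and -0.21 in the authors' deposited table; it was picked after its values were seen.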
